A study of Homo sapiens with 4 samples.

Results

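The NR4A orphan nuclear receptors are a family of 3 transcription factors, NR4A1 (Nur77), NR4A2 (Nurr1) and NR4A3 (NOR1), and their nascent RNA was followed here after auxin treatment of HCT116 cells. The 3 genes were taken by symbol from a deposited table of 60048 human genes, and all 3 passed the filter on low signal. They were selected with their values of auxin against control in these same libraries already known, so that difference is described below and is not tested. HCT116 is a human colorectal carcinoma line. All 4 libraries came from its RAD21-mAC derivative, in which the cohesin subunit RAD21 carries a degron tag that lets auxin trigger its destruction; the control cells carry the tag too. DMSO was given to the cells of the 2 control libraries, and the auxin indole-3-acetic acid, at 0.5 mM for 3 h, to those of the 2 auxin libraries. New transcripts were marked with 0.5 mM 5-ethynyl uridine (EU) for 20 min, a uridine analogue that allows freshly made RNA to be captured. Labelled RNA of fly S2 cells, which had received 0.2 mM EU for 2 h, was mixed in before capture at 20 µg of mRNA for every 200 µg of rRNA-depleted human RNA. The labels do not say that replicates were separate cultures, so every p-value below measures only the spread between these libraries, which may be technical.

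Unlike most nuclear receptors, NR4A proteins have a ligand pocket filled by bulky side chains, and their activity is set mainly by how much of them is made. Their genes are immediate early genes, switched on within minutes by growth factors, stress, calcium and cyclic AMP, in large part through the factors CREB and MEF2. The proteins bind the NBRE element as monomers, and NR4A1 and NR4A2 can also pair with the retinoid X receptor. In the intestine and in colorectal tumours NR4A factors have been studied in cell survival and in the response to prostaglandins.

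Promoter sequences are shown for the members that the RefSeq promoter table of GRCh38.p14 holds, because cyclic AMP acts on these genes through CRE half-sites near the start. Each window runs from 250 bases before an annotated start site to 50 after it, 5′ to 3′ on the gene's strand. Capitals mark the CRE half-site TGACG, on either strand. NR4A3 lies at chr9:99821635-99821934 and NR4A1 has 2 annotated windows, chr12:52022582-52022881 and chr12:52037465-52037764, all on the plus strand.
NR4A3: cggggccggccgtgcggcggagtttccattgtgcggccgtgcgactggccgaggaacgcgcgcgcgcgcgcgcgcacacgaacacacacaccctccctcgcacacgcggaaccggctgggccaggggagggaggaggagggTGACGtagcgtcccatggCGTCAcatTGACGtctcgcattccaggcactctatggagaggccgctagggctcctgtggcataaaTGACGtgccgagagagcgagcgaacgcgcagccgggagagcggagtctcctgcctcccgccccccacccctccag
NR4A1, upstream window: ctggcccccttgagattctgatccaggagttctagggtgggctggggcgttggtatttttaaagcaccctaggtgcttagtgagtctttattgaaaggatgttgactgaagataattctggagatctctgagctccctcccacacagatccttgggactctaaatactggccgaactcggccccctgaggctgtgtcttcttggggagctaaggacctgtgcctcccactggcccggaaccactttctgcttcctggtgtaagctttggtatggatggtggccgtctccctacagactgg
NR4A1, downstream window: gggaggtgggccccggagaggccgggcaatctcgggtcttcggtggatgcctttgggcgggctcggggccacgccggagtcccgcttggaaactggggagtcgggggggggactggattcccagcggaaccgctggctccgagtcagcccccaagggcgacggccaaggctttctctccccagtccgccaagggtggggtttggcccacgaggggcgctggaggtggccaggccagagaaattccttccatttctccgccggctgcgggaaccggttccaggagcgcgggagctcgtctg
The NR4A3 window held 4 half-sites, with first bases at -109, -91, -83 and -25 from the start site, the one at -91 on the minus strand. Both NR4A1 windows held none. They cover only 2 annotated starts, and the rest of its span of 36675 bases was not searched. The windows therefore do not show that NR4A1 lacks half-sites near other starts. Of 34943 RefSeq promoter windows of 300 bases, 24.5% held at least 1 half-site and 0.315% held 4 or more. The complete CRE TGACGTCA, present in 1.84% of windows, and the NBRE AAAGGTCA, present in 1.22%, were in none of the 3 sequences. Nor was the TATA box TATAAA (11.6% of windows) or the CArG box bound by serum response factor (1.30%). The GC box GGGCGG, found in 44.9% of windows, occurred once in the NR4A3 window and once in the downstream NR4A1 window. GC content was 69.7% in these 2 windows and 53.3% in the upstream NR4A1 window. Both strands were searched for every motif, and each complete CRE also contains a half-site on either strand.

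NR4A2 had about 3 times its control signal with auxin, NR4A3 was higher by a smaller factor, and NR4A1 was nearly level. Values are the deposited signal of a gene over its whole span, introns included, divided by 1 scaling factor per library. NR4A2, on the minus strand of chromosome 2 (ENSG00000153234, GRCh38 chr2:156325098-156342348), is known for its part in making midbrain dopamine neurons. Its signal was 2474 and 2440 in control replicates 1 and 2, and 6920 and 7857 in auxin replicates 1 and 2. The controls lay within a few percent of each other and both auxin libraries stood far above them. The means were 2457 ± 24.1 and 7388 ± 663 (SD, n = 2 each), a 3.01-fold higher mean with auxin. Across the 4 pairings of an auxin with a control library the ratio ran from 2.80 to 3.22. The log2 fold change, on the log2(scaled signal + 1) scale used throughout, was 1.59 with a standard error of 0.14.

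NR4A3, on the plus strand of chromosome 9 (ENSG00000119508, chr9:99821855-99866891), is known as the partner in the gene fusions of extraskeletal myxoid chondrosarcoma. Its signal was 520 and 651 in the controls, and 992 and 975 with auxin. The auxin libraries agreed closely and both exceeded both controls, which differed more from each other. The means were 585 ± 92.8 and 983 ± 12.4 (SD, n = 2 each), 1.68-fold higher with auxin, with pairwise ratios from 1.50 to 1.91. The log2 fold change was 0.76 (standard error 0.19). Leaving out control replicate 1 gave 0.60, and leaving out control replicate 2 gave 0.92.

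NR4A1, on the plus strand of chromosome 12 (ENSG00000123358, chr12:52022832-52059506), is known for its induction by growth factors and by antigen receptor signals in lymphocytes. Its signal was 5500 and 4912 in the controls, and 6043 and 5525 with auxin. The groups were barely apart, with auxin replicate 2 only just above control replicate 1. The means were 5206 ± 416 and 5784 ± 367 (SD, n = 2 each), 1.11-fold higher with auxin, and no pairwise ratio exceeded 1.23. The log2 fold change of 0.15 (standard error 0.14) was near its own error. Leaving out control replicate 1 gave 0.24, and leaving out control replicate 2 gave 0.071.

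**Figure D1:**
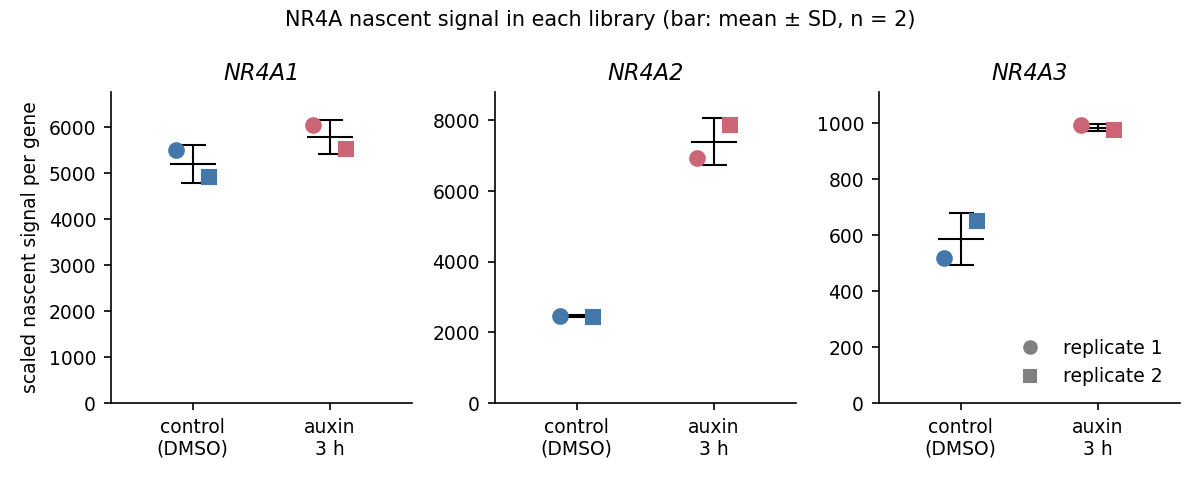
Scaled nascent RNA signal of NR4A1, NR4A2 and NR4A3 in each library (circles, replicate 1; squares, replicate 2; control and auxin, 2 libraries each), with bars for the mean ± SD; each vertical axis starts at 0 and has its own range. NR4A2 runs from 2440 to 2474 in control and from 6920 to 7857 with auxin, while the groups of NR4A1 nearly meet.

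The 3 genes thus kept 1 order of change, NR4A2 above NR4A3 above NR4A1, and by log2 fold change they ranked 175, 1543 and 11959 among the 39464 genes tested. In all 3, both auxin libraries lay above both controls, which also held for 18.6% of all tested genes. NR4A2 alone passed an adjusted p of 0.05 in limma's fit over all genes, where 0.732% of genes passed in either direction and 0.332% as higher with auxin; nothing is read from this, since the genes were chosen on that contrast. Without any scaling beyond the deposited one no member passed, and with a replicate term NR4A3 passed as well. In both of these fits limma gave each gene the variance typical of its signal level, and its own spread did not count. The log2 fold change of each member was above 0 under all 12 alternative settings.

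Per kb of span, which allows genes to be set side by side, control signal was 142 ± 1.40 for NR4A2, 142 ± 11.3 for NR4A1 and 13.0 ± 2.06 for NR4A3 (SD, n = 2). On the spans of the table, NR4A1 and NR4A2 therefore did not differ beyond their spread in control cells. With auxin the values were 428 ± 38.4, 158 ± 9.99 and 21.8 ± 0.275, and the 3 genes stood clear of each other. The summed signal per kb of the family was 305 and 290 in the controls, and 588 and 628 with auxin. Of the summed signal not divided by span, NR4A1 made up 64.8% and 61.4% in the controls and 43.3% and 38.5% with auxin. NR4A2 made up 29.1% and 30.5% in the controls and 49.6% and 54.7% with auxin. The NR4A3 share lay between 6.12% and 8.13% in all 4 libraries, and the groups overlapped. The span of NR4A2 in the table reaches 9627 bases further upstream than the RefSeq gene. Divided by the RefSeq span of 8285 bases, the same control signal would come to 297 per kb, about 2 times that of NR4A1. Whether NR4A2 stood clear of NR4A1 in control thus depends on which gene model is used. Signal within the RefSeq span alone was not counted.

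NR4A2 overlapped no other gene in the table, but both other members did, and the table does not separate strands. In all 4226 pairs of a gene of at least 1000 bases and a gene of the opposite strand that contains it, the containing gene was at least as high in every library, within 0.1%. NR4A1 contains the antisense RNA NR4A1AS (ENSG00000259884, chr12:52058459-52059332), whose values were 256 and 295 in the controls, and 384 and 308 with auxin. Its log2 fold change was 0.32 (standard error 0.22, adjusted p = 0.742 in limma). NR4A3 lies wholly inside STX17-AS1 (ENSG00000255145, chr9:99397024-99906605, minus strand), whose signal was 2541 and 2653 in the controls and 3325 and 3479 with auxin. Both auxin libraries were higher, but the log2 fold change of 0.39 (standard error 0.14) did not pass, with an adjusted p of 0.343. NR4A3 alone equalled 20.4% and 24.5% of the STX17-AS1 signal in the controls, and 29.8% and 28.0% with auxin. With NR4A3 subtracted, STX17-AS1 was at 2022 and 2003 in the controls and 2333 and 2504 with auxin, a log2 difference of means of 0.26. Most of that remainder was AL359710.1, a neighbour of NR4A3 that does not overlap it, with 1890 and 1872 in the controls and 2145 and 2341 with auxin. The rest of the overlapping gene was therefore also higher with auxin, by less than NR4A3 itself. How much of the NR4A3 value comes from transcription on the opposite strand was not tested.

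Among the 48 nuclear receptor genes, and on the spans of the table, NR4A2 ranked 13 by control signal per kb and 2 with auxin. Dividing the same control signal by the RefSeq span puts NR4A2 at 297 per kb, above RARA on the span of the table. RefSeq spans of the other receptors were not used. The rank and neighbours of NR4A2 in control therefore hold only for the longer span. NR4A1 ranked 14 and then 11, and NR4A3 ranked 26 and then 24. The highest in control were NR2F2 (573 per kb), an orphan receptor of developmental patterning, ESRRA (464), a regulator of mitochondrial genes, NR2F6 (333), the retinoic acid receptor RARA (281) and the clock repressor NR1D1 (273). With auxin, only NR2F2 (1028 ± 286 per kb) exceeded NR4A2 (428 ± 38.4). In control, the neighbours of NR4A2 and NR4A1 in that order were NR1D2 (148 ± 9.44) above and NR1H3 (121 ± 22.2) below, and neither differed from NR4A2 or NR4A1 beyond the spread. Those of NR4A3 were PPARG (18.7 ± 3.37) above and NR0B2 (8.67 ± 7.02) below, and the spread of NR0B2 reached it. By log2 fold change, NR4A2 ranked 1, NR4A3 ranked 4 and NR4A1 ranked 15 of the 47 receptors tested. NR0B2, at very low signal, and NR2F2 ranked 2 and 3.

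**Figure D2:**
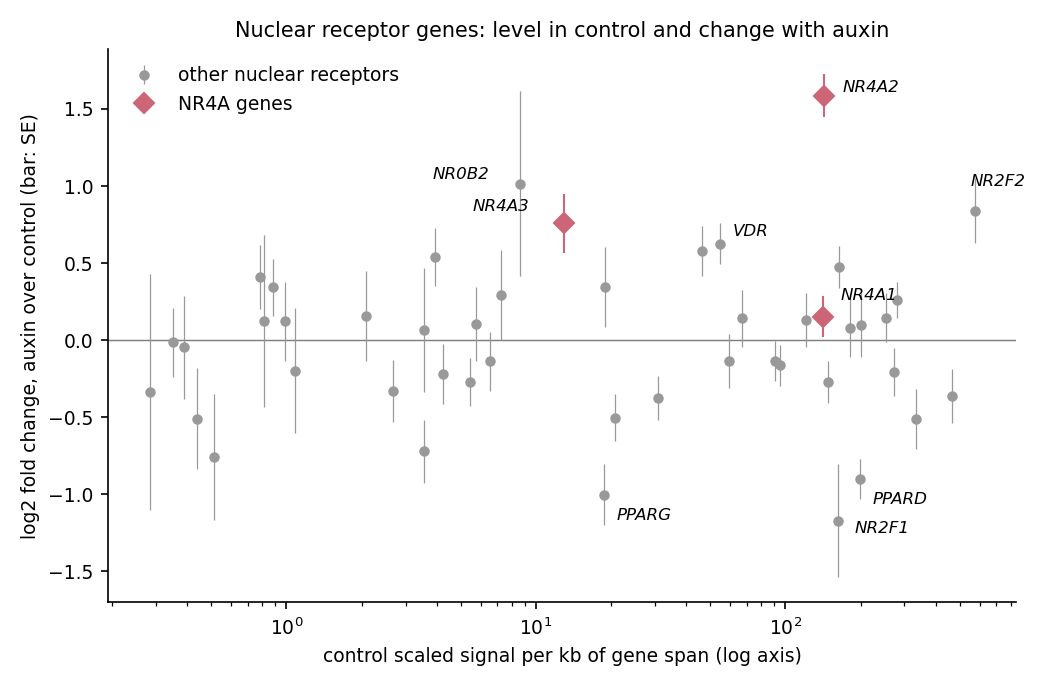
Log2 fold change of auxin over control (vertical axis, bars are standard errors) against the mean control signal per kb of span (horizontal, log axis) for the 47 nuclear receptor genes tested, from 2 libraries per group, with the NR4A genes as coloured diamonds. NR4A2 stands highest at 1.59, NR4A3 is at 0.76 and NR4A1 is at 0.15. NR4A1 and NR4A2 share a control level only on the spans of the table. The same signal divided by the RefSeq span puts NR4A2 at 297 per kb.

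Of the other 45 nuclear receptors, 44 were tested and 1 passed, as lower with auxin, where 0.4% of all genes passed in that direction. This was PPARD, a receptor for fatty acids (chr6:35342558-35428191), with 17281 and 16848 in the controls and 8202 and 10194 with auxin. Its log2 fold change was -0.90 (standard error 0.13, adjusted p = 0.0140 in limma). The call was lost without control replicate 2 (adjusted p = 0.0539) and on the deposited scale. At an unadjusted p under 0.05, 13 of the 44 passed, 6 higher and 7 lower, against 10.2% of all tested genes. The median log2 fold change of the 44 was -0.030, beside 0.0089 over all tested genes; it lay above 0 with scaling by library total and without control replicate 1 or auxin replicate 2. RXRA, a dimer partner of NR4A1 and NR4A2, had 25231 and 16011 in the controls and 23564 and 19067 with auxin. Its log2 fold change was 0.077 (standard error 0.19, adjusted p = 0.970), with overlapping groups.

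The signalling genes upstream of the NR4A family were also read, as 27 CREB and MEF2 regulators, all tested: CREB and its coactivators, kinases, MEF2 factors and class II histone deacetylases. None passed in limma's fit, against 0.732% of all tested genes. At an unadjusted p under 0.05, 6 passed (3 higher, 3 lower), against 10.2% of all tested genes, and the median log2 fold change was 0.016. RPS6KA5, a kinase of CREB and histone H3, had the smallest p, with 1805 and 3531 in the controls, 820 and 1445 with auxin and a log2 fold change of -1.21 (adjusted p = 0.155). CREBBP, the CREB coactivator and acetyltransferase, came next, with 23967 and 24275 in the controls, 28917 and 34257 with auxin and 0.38 (adjusted p = 0.195). The median lay below 0 on the deposited scale and without auxin replicate 1, auxin replicate 2 or control replicate 2.

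Genes known to be induced through CREB, as the NR4A genes are, were read next. The lists share genes: CREM and SIK1 are also among the regulators above, and FOS, FOSB, JUNB and DUSP1 are also among the immediate early genes below. Of 16 such genes 14 were tested, and 1 passed (7.14%), with a lower signal after auxin, where 0.4% of all tested genes passed in that direction. Unadjusted p-values under 0.05 were found for 3, all lower, beside 10.2% of all tested genes. The median log2 fold change was -0.36, and moved to -0.092 without control replicate 2, -0.16 without auxin replicate 1 and -0.13 over genes with a mean scaled signal of at least 50. The called gene was BDNF, a neurotrophin (chr11:27654893-27722058), with 1873 and 2770 in the controls and 665 and 624 with auxin. Its log2 fold change was -1.82 (standard error 0.21, adjusted p = 0.0033), and it overlaps the antisense gene BDNF-AS, from which this table does not separate it. Of the 16 listed genes, tested or not, 14 had a RefSeq promoter window, and 12 of these held at least 1 CRE half-site in any window. Across all genes, 89 tested genes had a window with 4 or more half-sites, as NR4A3 does; 2 of them passed, both lower, and their median log2 fold change was -0.060. Among the 15667 tested genes with any promoter window, 185 passed, and the median was -0.0066. Of these genes, 10228 held no half-site in any window.

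The immediate early genes, 23 listed and all tested, gave 1 call (4.35%), as higher with auxin, where 0.332% of all tested genes passed in that direction. This was CCN2, a secreted matrix-associated protein (chr6:131948176-131951372), with 612 and 906 in the controls and 1604 and 1823 with auxin. Its log2 fold change was 1.20 (standard error 0.21, adjusted p = 0.0347). The call was lost without control replicate 1 (adjusted p = 0.069) and on the deposited scale, and CCN2 overlaps AL133346.1. At an unadjusted p under 0.05, 10 passed, 8 higher and 2 lower, beside 10.2% of all tested genes. The median log2 fold change was 0.22, above 0 under every alternative. EGR1, a zinc finger factor induced with NR4A1 in many cells, had 1607 and 2265 in the controls and 2291 and 4233 with auxin, with a log2 fold change of 0.71 (adjusted p = 0.363). FOS, a subunit of the AP-1 factor, had 297 and 336 in the controls and 284 and 399 with auxin, with 0.092 (adjusted p = 0.972). EGR1, FOS and RXRA were picked for their known ties to the NR4A genes after their values were seen.

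Genes known as NR4A targets in some tissue, mostly of steroid, dopamine and glucose metabolism, numbered 16, of which 12 were tested. The highest value of any of them in any library was 1200, in SLC18A2, the vesicular monoamine transporter. None passed in limma's fit, also none at an unadjusted p under 0.05 (10.2% of all tested genes), and the median log2 fold change was -0.10. TH, which makes the dopamine precursor, had the smallest p, at 11.0 and 3.07 in the controls and 15.2 and 25.8 with auxin (log2 fold change 1.57, adjusted p = 0.493). ENO3, the muscle enolase, followed with 579 and 651 in the controls and 532 and 469 with auxin (log2 fold change -0.30, adjusted p = 0.718). The median was above 0 without auxin replicate 1. At this precision, a lack of calls does not show that these genes stayed the same.

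**Figure D3:**
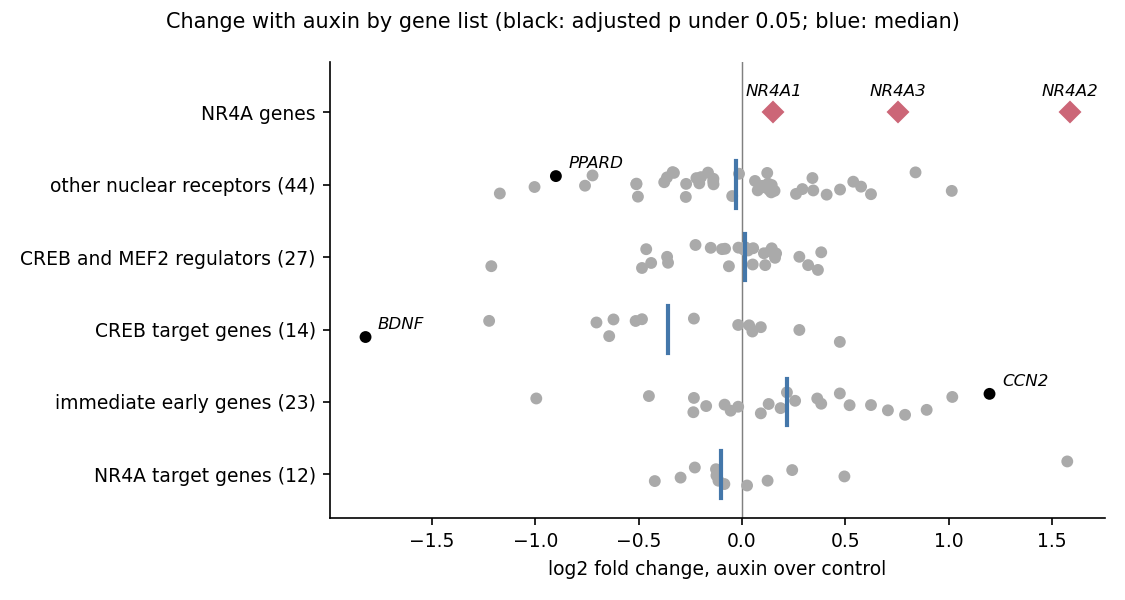
Log2 fold change with auxin over control for the NR4A genes (diamonds) and for the tested members of 5 gene lists (points, numbers tested in brackets), from 2 libraries per group. Black points passed an adjusted p of 0.05 and blue lines are medians. These run from -0.36 in the CREB target genes to 0.22 in the immediate early genes, and the former is -0.092 without control replicate 2. The CREB target genes share members with the CREB and MEF2 regulators and with the immediate early genes.

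Around the 3 genes, 72 other genes lay at least partly within 500 kb of a start site, of which 57 were tested and 1 passed, against 0.732% of all tested genes. NR4A2 has few neighbours. Of 8 genes in its window 5 were tested, and none passed adjusted or unadjusted. The nearest protein-coding gene, GPD2, the mitochondrial glycerol phosphate dehydrogenase, begins 93093 bases upstream. It had 7607 and 8352 in the controls and 7166 and 7810 with auxin, with a log2 fold change of -0.092 (standard error 0.13, adjusted p = 0.923). NR4A2 and its nearest protein-coding neighbour thus had log2 fold changes of 1.59 and -0.092.

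NR4A3 had 17 genes in its window, of which 14 were tested and none passed. In that window 3 passed at an unadjusted p under 0.05, against 10.2% of all tested genes, and the median log2 fold change was 0.17. Of the 3, STX17-AS1 (log2 fold change 0.39) and ERP44 (0.31) were higher with auxin, and TEX10 (-0.30) was lower. STX17-AS1 contains NR4A3, so its value is not separate from that of NR4A3. STX17, a syntaxin of autophagosome fusion, begins 39763 bases downstream, with 2611 and 2721 in the controls and 3035 and 2842 with auxin. Both auxin libraries were higher by a small amount, with a log2 fold change of 0.14 (standard error 0.15, adjusted p = 0.871).

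NR4A1 lies in a gene-dense region beside the type II keratin cluster, with 47 genes in its window and 38 tested. At an unadjusted p under 0.05, 10 of the 38 passed, against 10.2% of all tested genes. All 10 lay at least 100 kb downstream of NR4A1. ATG101, an autophagy gene 10465 bases downstream, had 3358 and 3589 in the controls and 3472 and 3625 with auxin, with a log2 fold change of 0.031 (adjusted p = 0.988). TAMALIN, a scaffold gene 6943 bases upstream, had 452 and 227 in the controls and 364 and 350 with auxin, with 0.16 (adjusted p = 0.958). The called gene of the region was KRT80, an epithelial keratin (chr12:52168996-52192014), 109490 bases downstream, with 5919 and 5550 in the controls and 2807 and 2527 with auxin. It fell by 1.11 on the log2 scale (standard error 0.14, adjusted p = 0.00664), while NR4A1 was at 0.15. The call was lost on the deposited scale. Split after the values were seen at 100 kb downstream of NR4A1, 17 of 20 tested genes beyond that line had negative log2 fold changes, with a median of -1.03. Among those with a mean scaled signal of at least 50, 10 of 12 were negative, with a median of -0.87. Of the other 18 in the window, 5 were negative and the median was 0.030. Over all 39464 tested genes, 20236 were above 0. The genes beyond the line are not separate measurements, since some are nested and strands are not separated. KRT7-AS lies inside KRT7. KRT81, AC021066.1, AC021066.3, AC121757.1 and AC121757.2 lie inside KRT86.

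**Figure D4:**
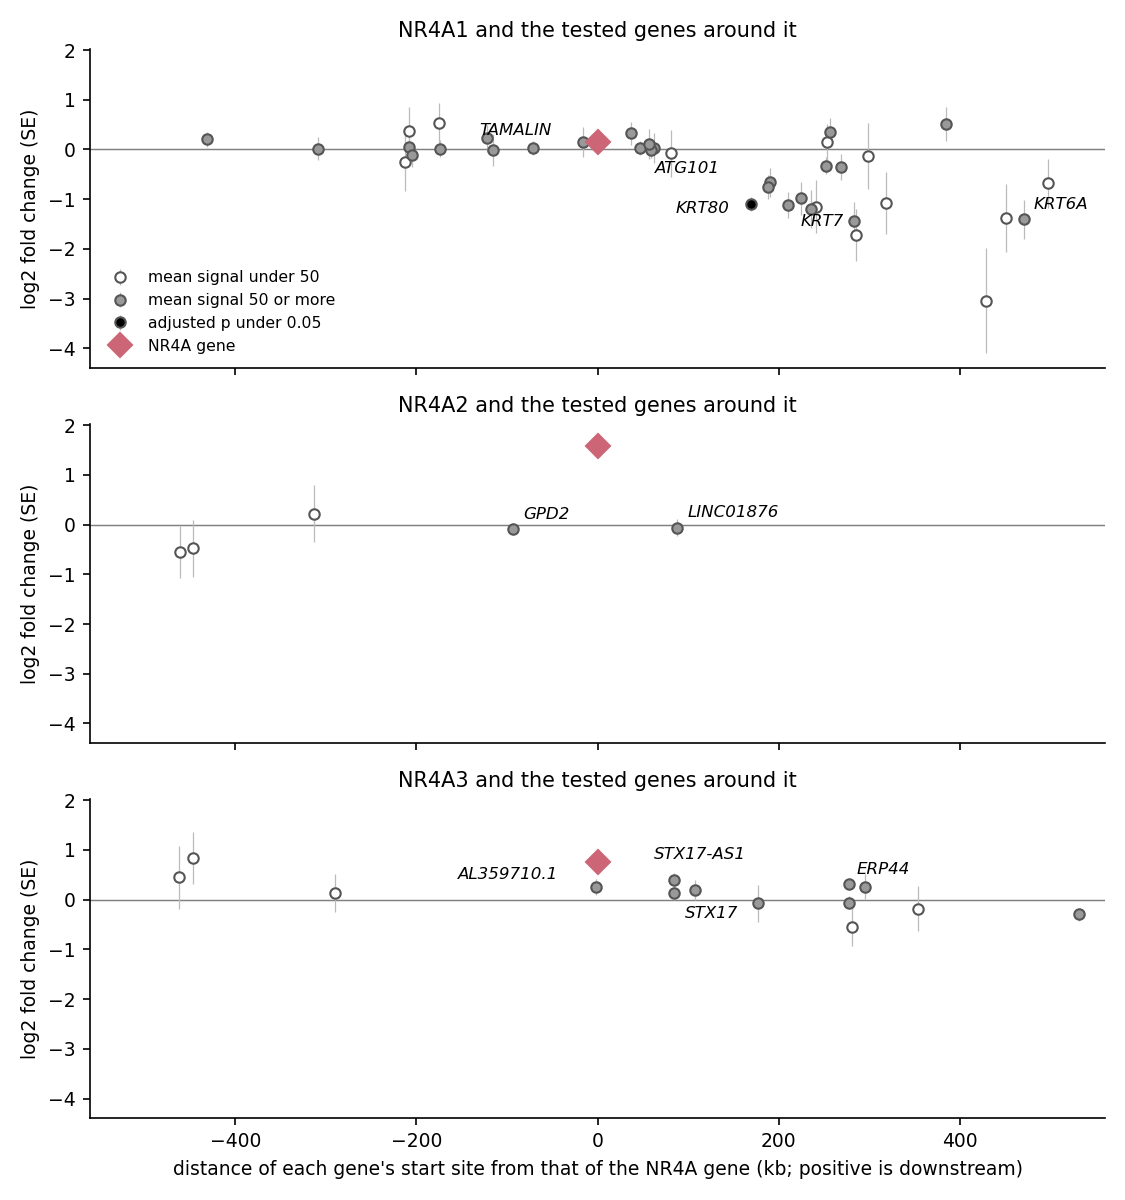
Log2 fold change with auxin over control of tested genes against the distance of their start sites from that of NR4A1, NR4A2 or NR4A3, in kb, with 1 panel per member; bars are standard errors, the member is the coloured diamond, a black point passed an adjusted p of 0.05 and open points have a mean signal under 50. Beside NR4A1 most genes beyond 100 kb downstream, some of them nested in others, are below 0. Beside NR4A2 the 5 tested genes lie far below the member.

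The genes with the most similar profile were found by the distance between log2 values centred on each gene's mean over the 4 libraries, over genes whose mean scaled signal reached 50 (29155 candidates for NR4A2). Few were near NR4A2, with 6 within 0.2. The closest were the lncRNA AC007686.4 (distance 0.047), the chemoattractant receptor gene GPR15 (0.11) and the transcription factor gene TFAP2A (0.14). AC007686.4 had 1929 and 1879 in the controls and 5512 and 6305 with auxin. TFAP2A had 3500 and 3651 in the controls and 9393 and 10368 with auxin, and overlaps its antisense genes. For NR4A3, 57 genes lay within 0.2, led by the lncRNA LASTR (0.033), OR2A4 (0.051), an olfactory receptor gene inside ENPP3, and MIEF2 (0.067), a mitochondrial fission factor. For NR4A1, whose profile is nearly flat, 3483 genes lay within 0.2, led by AC008763.3 (0.013), the glutamate receptor gene GRIK1 (0.019) and the vesicle traffic gene VPS41 (0.019). Between members the distance was 1.45 for NR4A1 and NR4A2, 0.88 for NR4A2 and NR4A3 and 0.70 for NR4A1 and NR4A3. These are descriptions of 4 libraries and carry no test.

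Summed deposited signal ran from 61135244 to 93113007 per library, both extremes being auxin libraries, and scaling divided them by 0.816 to 1.21. RAD21 itself had 5154 and 7190 in the controls and 5893 and 6264 with auxin (log2 fold change -0.0029, adjusted p = 0.998); the degron acts on the protein, so its RNA does not check the depletion. All 10 colorectal epithelial markers were detected, with summed signal from 64876 to 72221 in control and from 64842 to 66472 with auxin. None of the 10 passed in limma's fit. At an unadjusted p under 0.05, 4 passed, against 10.2% of all tested genes. Of these, 1 was higher (CDH1, at a log2 fold change of 0.55) and 3 were lower. The median log2 fold change of the 10 was -0.22. The 13 markers of leukocytes, fibroblasts, endothelium and hepatocytes summed to 1258 and 1521 in the controls and 1694 and 1977 with auxin, with COL1A1 the highest at up to 998. The sum, most of which was COL1A1 and VWF, was thus higher in both auxin libraries, as NR4A2 and NR4A3 were. Of the 13, 10 were tested, and all 10 had log2 fold changes above 0, beside 20236 of all 39464 tested genes. Their median was 0.40, and 0.39 over the 4 with a mean scaled signal of at least 50. None passed, and 1 passed at an unadjusted p under 0.05 (higher), against 10.2% of all tested genes. The groups of PTPRC and DCN overlapped all the same. So did those of LUM, which with CD3E was too low to be tested. CD3E was at 5.93 and 6.14 in the controls and 3.57 and 2.25 with auxin. None of the 13 was at 0 in all libraries. Their part in the NR4A values was not tested. In bulk RNA, a change in the number of cells of a type and a change in RNA per cell cannot be told apart.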

How the data were processed

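EU-labelled nascent RNA was measured in 4 libraries, 2 control and 2 auxin, grouped by their titles. The authors deposited 1 table of scaled signal per gene and library; the values step by a constant in each column, are not read counts, and the scaling factor is not given in the sources used here. The submitters' processing notes name Trimmomatic 0.39, Bowtie2 2.4.5, deepTools 3.5.1, hg38 and dm6, without role or order. The column of control replicate 2, misspelt in its header, was assigned by the number it carries. Positions are GRCh38: 99.8% of 37749 matched symbols overlapped their RefSeq gene, and starts were raised by 1.

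Because the values are signal, limma 3.58.1 (R 4.3.3) was used in place of a count model. Genes were kept if 2 or more libraries reached a value of 10, after rescaling each library to the median library total. Their deposited values also had to sum to at least 15 over the 4 libraries. Scaling used TMM, the trimmed mean of M-values, trimming 30% by log ratio and 5% by mean level, and log2(scaled signal + 1) was fitted with lmFit and eBayes (trend) over 39464 genes, with Benjamini-Hochberg adjustment over all of them. A gene passed at an adjusted p under 0.05. On simulated data for this comparison over the same genes, 197 of 200 genes with a mean signal of at least 50 and a 4-fold change were recovered among 215 called. The rest of the 215 were false calls. Noise was drawn independently for each library, and smaller changes, such as those of the members, were not simulated. Read depth is not known, and errors come from the differences between libraries alone.

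Alternatives covered scaling, filter, pseudocount, replicate term, threshold, window and leaving out each library. The members and lists were chosen with earlier results of these data known. The named genes were the members and genes overlapping them, the called genes of each list or the 2 with the smallest p, called and nearest protein-coding neighbours, the 3 most similar profiles, RAD21 and the 5 receptors highest in control.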

Additional observations from a re-analysis of the deposited data

How the results depend on the processing

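The fit over all genes called 289 genes. On the deposited scale 55 genes were called, 48 of them among the 289, and 0 of the other nuclear receptors, immediate early genes and genes within 500 kb of a member. With the replicate number as a block (replicate block) 4273 genes were called, the 289 included, with 13 other nuclear receptors, 8 CREB and MEF2 regulators, 6 CREB target genes, 12 immediate early genes and 13 genes within 500 kb. The labels do not say what the numbers mark; replicate differences correlated at 0.231 across 39464 genes and at 0.462 across the 29158 with a mean scaled signal of at least 50, and 2 pairs are too few to show pairing. At an adjusted p under 0.01, 82 genes were called, and 0 other nuclear receptors and 0 immediate early genes. A pseudocount of 10 called 2 other nuclear receptors, and a window of 1000 kb 2 neighbours. Leaving out 1 library gave 132 (without control replicate 2) to 681 (without auxin replicate 1) genes, 0 to 5 other nuclear receptors, 0 to 2 CREB and MEF2 regulators, 1 to 3 CREB target genes, 0 to 5 immediate early genes and 1 to 8 neighbours; the log2 fold change of NR4A2 ran from 1.49 to 1.68. These fits with a lone library assume that it varies like the other group. On the deposited scale, with the replicate block and without either auxin replicate, limma gave each gene the variance typical of its signal level. A gene's own spread did not count there, unlike in the main fit. No NR4A target gene was called under any alternative. The causes were not tested. With 2 libraries per group, unknown depth and unseparated strands, values of overlapping genes and small differences are weakly resolved.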
